A study of Mus musculus with 16 samples.

Results

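Mouse leukaemia cultures made resistant to drugs that the efflux pump P-glycoprotein carries were compared with cultures made resistant to drugs of other kinds. The first class held 5 derivatives, 2 resistant to etoposide (EP) and 3 resistant to vincristine (VR). The second held 6 derivatives, 3 resistant to cytarabine (CR), 1 to methotrexate (MTX) and 2 to prednisone (PD). These 11 derivatives and the 5 parental cultures (Par) they came from made up all 16 RNA libraries of the series. Membership was set by the drug named in the labels and not by any measured value.

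All cultures were T-cell acute lymphoblastic leukaemia lines from mouse thymus. Lines 2883, 2696, 2641 and 2869 carried the genotype Mcm2cre/cre, in which a Cre insertion lowers the replication helicase subunit Mcm2, and line 7298 was SCL/LMO1 transgenic. Parental cultures had received PBS, and no dose or duration of drug exposure is given in the sources used here, nor is the promoter of the transgene or whether a derivative is 1 clone. Line 2883 gave derivatives of both classes (EP, VR, CR, MTX and PD), as did line 2869 (VR and CR). Line 2696 gave only EP and VR, line 2641 only PD and line 7298 only CR, so that drug class and line were partly tied together. Each culture was 1 library, so every p-value below measures only the spread between these cultures, which may in part be technical. In the text a library is named by its drug code and line, as in VR2869.

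P-glycoprotein is a membrane pump of the ABC (ATP-binding cassette) family that uses ATP to move bulky, often cationic or hydrophobic molecules out of the cell. Mice have a pair of genes for it, Abcb1a and Abcb1b, which lie side by side on chromosome 5 and correspond to the single human gene ABCB1. Vincristine, which blocks microtubule assembly, and etoposide, which traps topoisomerase II on DNA, are textbook substrates of the pump. Cytarabine is a nucleoside that needs a kinase inside the cell and methotrexate is an antifolate taken up by the folate carrier. Prednisone acts through the glucocorticoid receptor; glucocorticoids have also been described as substrates, so the division follows the stated rule and not a sharp biochemical line.

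Depth was 14257000 to 17201000 reads in the 5 libraries of etoposide or vincristine resistance, 14064000 to 18954000 in the 6 of the other drugs and 12144000 to 13497000 in the 5 parental libraries. Mitochondrial transcripts took 3.13% to 5.53%, 2.31% to 4.14% and 3.10% to 3.86% of reads in the same order. All 22 marker genes of T cell precursors were in the table, with a summed level of 6831 to 11170 CPM (reads scaled to the library total) in the etoposide and vincristine derivatives and 8267 to 12500 CPM in the others. Of the markers of other cell types, the table held 1 of 6 for B cells, 2 of 7 for myeloid cells, 2 of 5 for fibroblasts, 1 of 3 for endothelium and none for erythroid, epithelial or NK cells. The B cell marker present, Cd79b, was at 13.2 CPM or less in every library. The myeloid pair Cd68 and Itgam summed to 12.08 to 20.35 CPM in the etoposide and vincristine derivatives and 3.85 to 25.32 CPM in the others. Pecam1, the endothelial marker present, was at 25.53 to 220.4 CPM and 33.05 to 124 CPM in the same order. The part of these markers in the results was not tested. The fibroblast pair Pdgfra and Pdgfrb summed to 0.186 to 441 CPM in the etoposide and vincristine derivatives and 0.803 to 311 CPM in the others, ranges that overlap; their part in the results was not tested.

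The starts of 3 genes on which the comparison turns are shown here: the pair that encodes the pump, and Atp1b1, the gene outside its chromosomal region that passed the test. Each sequence is the RefSeq window from 250 bases before to 50 bases after the start site on the GRCm38.p6 build, on the strand of the gene. Capitals mark matches, on either strand, to 4 motifs: the CCAAT box (CCAAT), the GC box (GGGCGG), the AP-1 site (TGANTCA) and the TATA box (TATAAA).
Abcb1a, chr5:8566841-8567140, plus strand: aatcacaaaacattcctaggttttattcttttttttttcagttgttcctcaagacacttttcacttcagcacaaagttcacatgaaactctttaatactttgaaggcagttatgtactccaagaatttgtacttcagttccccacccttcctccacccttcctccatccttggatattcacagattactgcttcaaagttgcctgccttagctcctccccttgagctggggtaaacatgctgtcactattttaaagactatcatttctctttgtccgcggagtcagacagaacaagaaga
Abcb1b, chr5:8797897-8798196, plus strand: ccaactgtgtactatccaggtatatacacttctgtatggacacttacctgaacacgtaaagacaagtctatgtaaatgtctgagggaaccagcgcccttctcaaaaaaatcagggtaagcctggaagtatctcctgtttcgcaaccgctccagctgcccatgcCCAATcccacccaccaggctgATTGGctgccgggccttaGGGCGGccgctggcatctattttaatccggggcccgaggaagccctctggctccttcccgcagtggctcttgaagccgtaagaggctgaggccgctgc
Atp1b1, chr1:164458306-164458605, minus strand: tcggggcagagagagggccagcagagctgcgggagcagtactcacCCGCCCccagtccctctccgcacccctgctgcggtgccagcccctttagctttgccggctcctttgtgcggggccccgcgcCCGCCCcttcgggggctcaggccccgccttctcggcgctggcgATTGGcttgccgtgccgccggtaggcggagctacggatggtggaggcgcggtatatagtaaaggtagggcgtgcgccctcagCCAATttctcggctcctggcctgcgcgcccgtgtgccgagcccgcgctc
No base belonged to 2 matches.

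The window of Abcb1b held 2 CCAAT boxes, starting 87 and 66 bases before the start site, and 1 GC box at 48 bases before it. That of Atp1b1 held 2 CCAAT boxes and 2 GC boxes. In the window of Abcb1a none of the 4 motifs was found, which says only that these letters are not in these 300 bases. Among 32851 windows of the same length, 37.4% held a CCAAT box, 35.7% a GC box, 13.6% a TATA box and 7.8% an AP-1 site. The RefSeq start of Abcb1a lies 93.0 kb upstream of the start in the deposited table (chromosome 5, 8660077 to 8748575 on mm10), inside the span of the neighbouring gene Rundc3b, which runs on the opposite strand. For Abcb1b (8798147 to 8866315) and Atp1b1 (chromosome 1, 164437109 to 164458355) both sources gave the same start. Matches are descriptions of the sequence and no binding was measured.

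Abcb1a separated the drug classes completely. In line 2883 it was at 0 reads in the parental library and at 3757 CPM in EP2883 and 5237 CPM in VR2883. In line 2869 it went from 15.8 CPM in the parental library to 3909 CPM in VR2869. In line 2696 the parental level of 4.24 CPM compared with 286 CPM in EP2696 and 178 CPM in VR2696. Every etoposide or vincristine derivative was thus far above its parent, and both derivatives of line 2696 stood lower than the other 3.

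In the other class, levels of Abcb1a were 6.61 CPM in CR7298 (parental 16.0), 2.94 CPM in CR2869, 1.65 CPM in CR2883, 0.255 CPM in PD2883 and 0.12 CPM in PD2641, with 0 reads in MTX2883 and in the parental library of line 2641. The highest of these 6 derivatives was below the lowest of the 5. As differences from the own parental library on the log2(CPM + 1) scale, the etoposide and vincristine derivatives ran from 5.09 (VR2696) to 12.34 (VR2883), and the others from -2.09 (CR2869) to 1.39 (CR2883).

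The 2 classes were compared with limma, a linear model fitted across all genes with moderated variances, which had 1 term per line and 1 term per class. Abcb1a was 10.07 ± 0.84 (SE) higher in the etoposide and vincristine class than in the other (limma adjusted p = 0.000437). Its 2 sides were 8.78 above the parental level and -1.28 against it. Exchanging the classes among the 11 differences gave the same separation in no other of the 462 assignments (mean difference 8.82, two-sided exact permutation p = 0.00217, the smallest these assignments can give). When classes were exchanged only within lines 2883 and 2869, 20 assignments remained and the exact permutation p was 0.05, again the smallest possible. Derivatives of a line share their parental library, so the 11 differences are not fully independent. The call was lost without line 2883 (8.18, limma adjusted p = 0.171) and when the 11 differences were fitted as 2 groups (8.82, limma adjusted p = 1.00).

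Between derivatives of the same line, without use of the parental library, Abcb1a was 11.53 higher on the log2(CPM + 1) scale in the etoposide and vincristine class within line 2883 (2 against 3 libraries). Within line 2869 it was 9.96 higher (1 against 1 library).

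**Figure D1:**
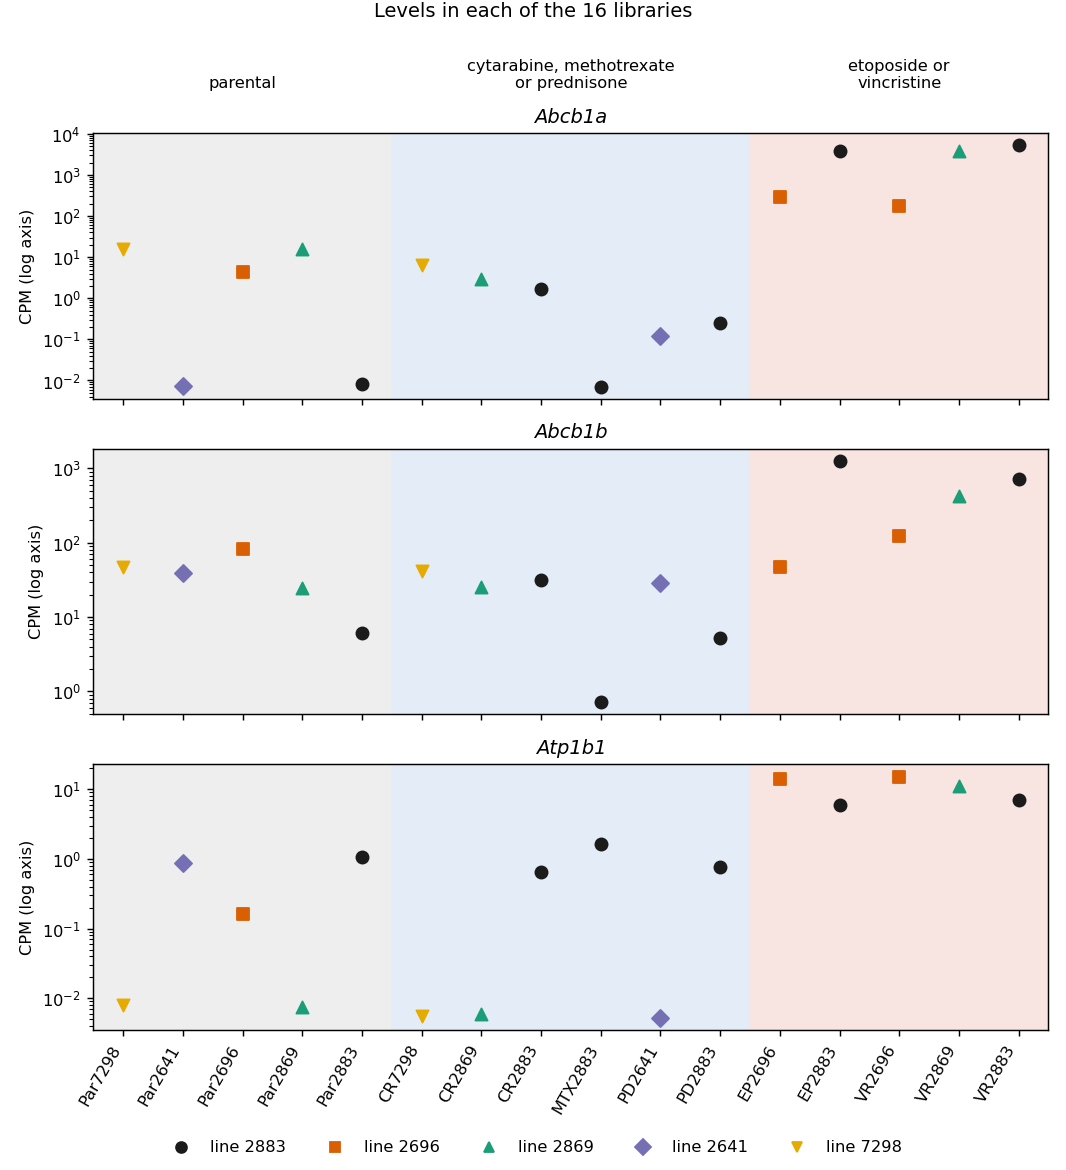
Levels of Abcb1a, Abcb1b and Atp1b1 in the 16 libraries, in CPM on a log axis, 1 point per library, coloured and shaped by line; libraries with 0 reads sit at the constant of 0.1 read that the deposited values contain. For Abcb1a and Atp1b1 all 5 etoposide or vincristine libraries lie above all 11 others, while for Abcb1b the EP2696 point lies within the range of the parental libraries.

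Abcb1b, the second gene of the pump, followed Abcb1a in 3 of the 5 derivatives. It was at 1254 CPM in EP2883 and 718 CPM in VR2883, against 6.18 CPM in their parental library, and at 422 CPM in VR2869 against 24.6 CPM. In line 2696, however, VR2696 was at 124 CPM and EP2696 at 47.1 CPM, against 83.1 CPM in the parental library. The difference from the parental library was 0.57 in VR2696 and -0.80 in EP2696.

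Among the other drugs, Abcb1b was at 31.4 CPM in CR2883 and 0.718 CPM in MTX2883, a difference of 2.17 and -2.06 from the same parental library. The 4 remaining derivatives were between -0.46 and 0.03. The classes therefore overlapped, and the modelled difference of 5.06 ± 1.09 was not called (limma adjusted p = 0.292). The exact permutation p was 0.0563 over the 462 assignments. When classes were exchanged only within lines it was 0.10. Leaving out 1 derivative at a time gave exact permutation p-values from 0.00952 without EP2696 and 0.0286 without VR2696, the 2 derivatives with the lowest differences of their class, to 0.10 without VR2883, 0.103 without MTX2883 and 0.114 without EP2883. Reads shared by these paralogs could have been assigned to either gene, and how the authors treated them is not given in the sources used here.

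Genes around the pump were higher together with it in some derivatives. The table held 17 genes that start within 1 Mb of Abcb1a, and 12 passed the expression filter. All 12 had a positive difference between the classes, 11 had an unadjusted limma p under 0.05, and 3 of 12 were called: Abcb1a, Gm42686 and Rundc3b. Over all 12595 genes tested, 5723 had a positive difference and 3.39% were higher at an unadjusted limma p under 0.05. Of these 12595, 4 genes or 0.0318% were called, all higher. Without the term for line it was 2, Abcb1a and Atp1b1.

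EP2883 had 15 of the 17 genes at least 1 log2 unit above the parental library, VR2883 and VR2869 had 14 each, VR2696 had 7 and EP2696 had 2. In the 6 derivatives of the other class this number was at most 2, in CR2883, where the pair was Abcb1a and Abcb1b. Among all genes with at least 5 CPM in the derivative or its parent, 1188 of 11024 were that far above the parent in EP2883. The same count was 754 of 10916 in VR2883, 678 of 10240 in VR2869, 401 of 10734 in VR2696, 296 of 10787 in EP2696 and 1014 of 11039 in CR2883. So levels were higher over most of the region in 3 derivatives, over a smaller set in VR2696, and Abcb1a with Gm42686 alone in EP2696 by this threshold. DNA copy number was not measured here.

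Rundc3b (chromosome 5, 8490334 to 8622952) encodes a RUN domain protein and is the next gene upstream. It was at 1458 CPM in EP2883, 1536 CPM in VR2883 and 596 CPM in VR2869, and at 83.8 CPM in EP2696 and 83.5 CPM in VR2696. Parental levels in these lines were 30.8, 24.3 and 47.3 CPM for 2883, 2869 and 2696. The 6 other derivatives had 8.97 to 38.8 CPM, so the classes did not overlap (5.12 ± 0.66, limma adjusted p = 0.0168). This call was lost in 13 of 30 alternatives, among them the fit without line 2883 (3.66, limma adjusted p = 0.760). The RefSeq start of Abcb1a lies inside the span of Rundc3b, on the opposite strand. The use of strand in counting is not stated, and whether reads of Abcb1a were counted to Rundc3b was not tested.

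Gm42686 is an unclassified transcript (biotype TEC) on the strand opposite to Abcb1a, whose span overlaps 2 of the 28 exons of the main Abcb1a transcript. It was at 44.6, 49.7 and 32.1 CPM in EP2883, VR2883 and VR2869 and at 4.20 and 1.76 CPM in EP2696 and VR2696, against 0.519 CPM or less in the other 11 libraries (4.72 ± 0.52, limma adjusted p = 0.00545). The library kit was stranded, but whether counting used the strand is not stated, so reads of Abcb1a and Gm42686 cannot be told apart.

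The neighbours with the next smallest p were not called. Dbf4, the activating subunit of the Cdc7 replication kinase, was at 3318, 4717 and 1736 CPM in EP2883, VR2883 and VR2869, and at 138 and 373 CPM in EP2696 and VR2696, against 117 to 220 CPM in the other class (3.54 ± 0.55, limma adjusted p = 0.060). Dmtf1, a Myb-like transcription factor, had a difference of 1.91 ± 0.30 (limma adjusted p = 0.060). Crot, a peroxisomal carnitine acyltransferase, was at 3.82 ± 0.62, the mitochondrial carrier Slc25a40 at 4.06 ± 0.69 and Tmem243 at 4.26 ± 0.78. Sri, which encodes the calcium-binding protein sorcin, was at 3.68 ± 0.72. In all 6 of these, EP2696 lay within the range of the other-drug derivatives, whereas the other 4 etoposide or vincristine derivatives were above the parental level. Abcb4, the phospholipid flippase of the same family, was at 79.0 CPM in EP2883 and 43.5 CPM in VR2883 but at 2.39 CPM in VR2869, 2.96 CPM in VR2696 and 0.181 CPM in EP2696.

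**Figure D2:**
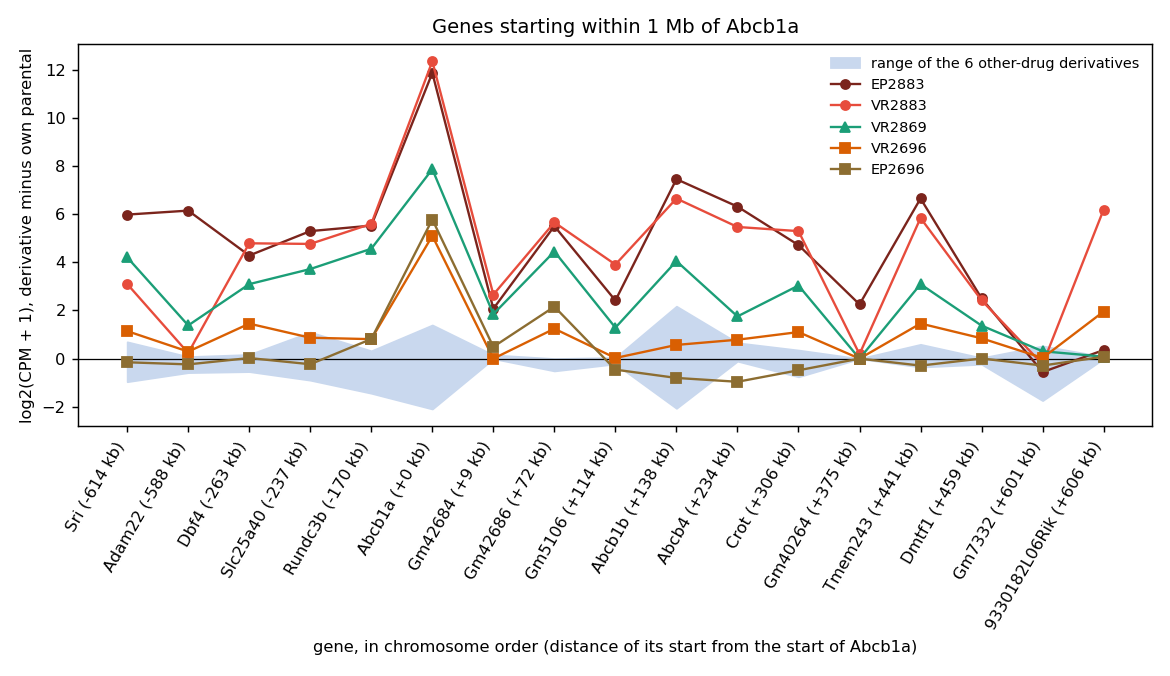
Difference from the own parental library, in log2(CPM + 1) units, for the 17 genes that start within 1 Mb of Abcb1a, in chromosome order and with the distance of each start in kb; lines join the values of 1 derivative and the band spans the 6 derivatives of the other drugs. EP2883, VR2883 and VR2869 run above the band over most genes, while EP2696 leaves it upward mainly at Rundc3b, Abcb1a, Gm42684 and Gm42686.

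No other ABC transporter separated the classes. Of 31 ABC transporters listed, 26 were in the table and 25 were tested. Besides Abcb1a, Abcb1b and Abcb4, only Abcc1 had an unadjusted limma p under 0.05 (1.10 ± 0.39, adjusted p = 0.494). Abcc1 encodes MRP1, a pump for glutathione conjugates that also exports vincristine and etoposide. Its difference from the parental library was 2.71 in EP2883 and 2.05 in VR2883, but 0.13 in EP2696, 0.05 in VR2869 and -0.22 in VR2696, and MTX2883 stood at 1.12. The other 21 transporters lay between -0.69 (Abcg1) and 0.48 (Abcb8). The median over the 25 was 0.00, against -0.03 over all genes tested, and 4 of 25 had an unadjusted p under 0.05 upward, against 3.39% of all genes; 3 of those 4 are neighbours on chromosome 5.

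Of 43 tested genes reported to regulate Abcb1, none was called. Unadjusted limma p-values were under 0.05 upward for 3 members and downward for 2, against 3.39% and 5.13% of all genes tested. Upward were the kinase Hipk2 (1.64 ± 0.38), Cebpb (1.40 ± 0.40), a bZIP transcription factor, and Lef1 (0.74 ± 0.30), a partner of beta-catenin. Downward were the acetyltransferase Ep300 (-0.60 ± 0.17) and the T cell factor Tcf7 (-0.82 ± 0.37). Hipk2 was 2.08 and 1.78 above the parental level in EP2883 and VR2883, at -0.11 in both derivatives of line 2696 and at 0.51 in VR2869, and the classes overlapped for each of the 5. In line 2696 Hipk2 was near the floor, at 0.0862 CPM in the parental library, so it could barely fall there. The list's median was -0.05.

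Outside chromosome 5, 1 gene was called. Atp1b1 encodes the beta 1 subunit of the sodium-potassium ATPase, the pump that sets the sodium gradient across the plasma membrane. It was at 5.94 CPM in EP2883, 7.06 CPM in VR2883, 13.9 CPM in EP2696, 15.2 CPM in VR2696 and 11.0 CPM in VR2869. The other 11 libraries had at most 1.65 CPM, in MTX2883, and the parental libraries of lines 2883, 2696 and 2869 had 1.08 CPM, 0.16 CPM and 0 reads. Unlike the neighbours of the pump, Atp1b1 was highest in line 2696.

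The modelled difference of Atp1b1 was 2.76 ± 0.38 (limma adjusted p = 0.0236), with 5 of 5 derivatives above their parent in the first class and 1 of 6 in the second. CR7298 and CR2869 had 0 reads of it, as had their parental libraries, so their sign (-0.003 and -0.002) carries no information. The call held in 11 of 31 alternatives (limma adjusted p from 0.00191 to 0.990). It was lost with a pseudocount of 0.1 (4.58, limma adjusted p = 0.169). Without the genes near Abcb1a the difference stayed at 2.76 and the limma adjusted p was 0.0938. Taking out genes with a smaller p raises the adjusted p by itself, so that loss says nothing more about Atp1b1. Within line 2883 the etoposide and vincristine derivatives were 1.92 above the others, and within line 2869 the difference was 3.58.

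The other beta subunits, singled out after their values were seen, were not called. They had differences of 0.47 ± 0.35 (Atp1b2) and -0.28 ± 0.24 (Atp1b3).

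Of the 10 higher genes with the smallest p, 2 remained. Zfand4, a zinc finger gene on chromosome 6, was at 16.1 to 33.4 CPM in the first class and its differences from the parental library, 0.20 to 1.44, did not overlap the others (1.06 ± 0.19, limma adjusted p = 0.153). Lama5, a laminin chain of basement membranes, was above the parent by 1.75 in EP2883, 1.26 in VR2883 and 2.33 in VR2869, but stood at -0.22 in EP2696 and -0.30 in VR2696 (2.30 ± 0.44, limma adjusted p = 0.187). Line 2696 hardly expressed it, with 0.236 CPM in the parental library, so it could barely fall there. The parental library of line 2869 was at the floor (0.00742 CPM).

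No gene was called lower in the etoposide and vincristine class. The 10 with the smallest p had limma adjusted p-values from 0.177 to 0.332. Each of the 10 was lower both within line 2883 and within line 2869, whose libraries entered the fit that picked them. The shared sign is therefore no separate support. Cxcr4, the receptor for the chemokine CXCL12 that holds leukaemia cells in the marrow, was lower than the parent in 5 of 5 derivatives (-0.69 to -0.30), while the other 6 lay between -0.12 and 0.15. Its levels were 142 to 270 CPM in the first class and 150 to 275 CPM in the second, so it separates only as a difference from the own parent (-0.55 ± 0.10, limma adjusted p = 0.177). B3gnt2, which extends N-acetyllactosamine chains on glycoproteins, ran from -1.13 to -0.32 in the first class and from -0.25 to 0.83 in the second. Slc35d1, a nucleotide sugar carrier of the endoplasmic reticulum, ran from -0.72 to 0.04 against 0.36 to 1.67. For these 3 the classes did not overlap.

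Bcl6, the transcriptional repressor, was -2.10 from its parent in EP2883 and between -1.06 and -0.05 in the other 4, against -0.30 to 1.26 in the other class (-1.77 ± 0.35). Prkaa2, the alpha 2 catalytic subunit of the energy sensor AMPK, was between -1.88 and -1.75 in 4 derivatives and at -0.41 in VR2869, against -0.85 to 1.25 (-1.59 ± 0.33). Its levels were near the floor, at 0.00701 CPM in EP2883 and 0.00685 CPM in VR2883, against 2.40 CPM in their parent. VR2869 was at 0.703 CPM against 1.27 CPM in its parent. Such low parental levels limit how far the differences could fall. Serpini1, the protease inhibitor neuroserpin, had a difference of -1.59 ± 0.30. Oat, ornithine aminotransferase, was lower in EP2883, VR2883 and VR2869 (-1.26 to -0.86) and slightly higher in both derivatives of line 2696 (0.02 and 0.21). The demethylase Alkbh1 (-0.65 ± 0.14), the flippase Atp9b (-0.80 ± 0.18) and the kinase anchor Akap11 (-0.64 ± 0.14) completed the 10.

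**Figure D3:**
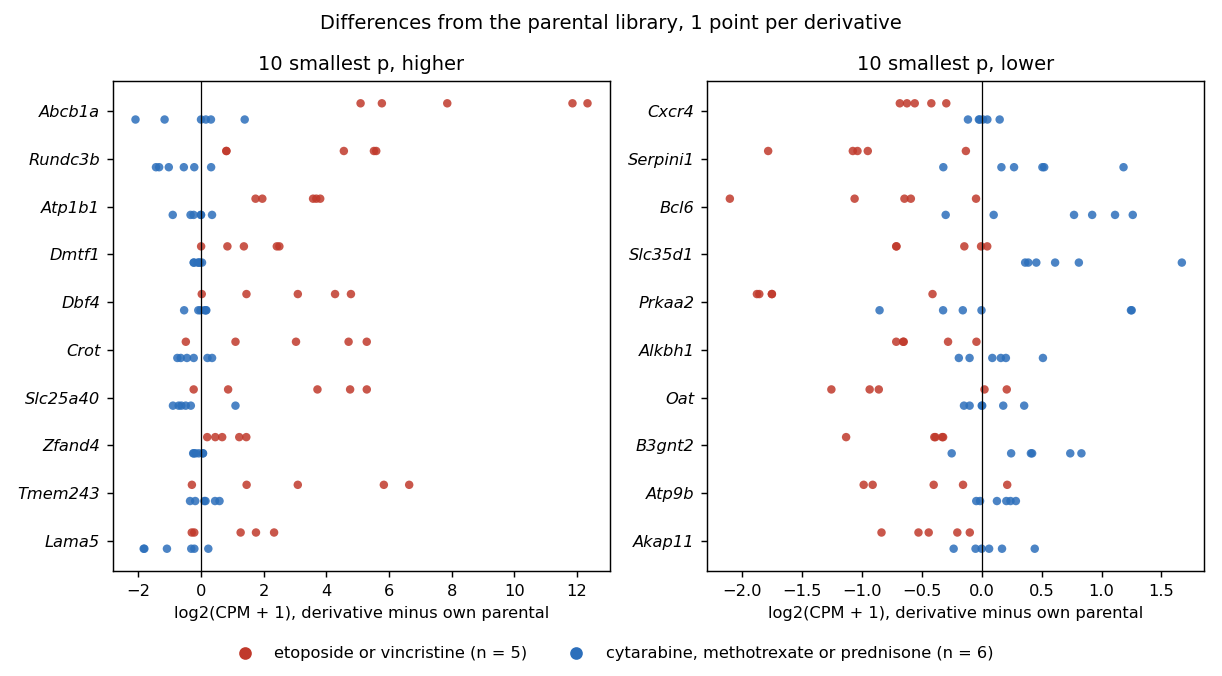
Differences from the own parental library, in log2(CPM + 1) units, for the 10 genes per direction with the smallest limma p; each point is 1 derivative, red for etoposide or vincristine (n = 5) and blue for the other drugs (n = 6). Red and blue points do not overlap for Abcb1a, Rundc3b, Atp1b1 and Zfand4 on the left and for Cxcr4, Slc35d1 and B3gnt2 on the right.

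Across the table, 427 genes were higher and 646 lower at an unadjusted limma p under 0.05, which is 3.39% and 5.13% of the genes tested. In 18 genes (0.143%) all 5 etoposide or vincristine derivatives lay above all 6 others, and in 18 (0.143%) all 5 lay below. The median difference over all genes was -0.03. Against the parental cultures, 6 genes (0.0476%) were called in the etoposide and vincristine class. Abcb1a, Gm42686 and Atp1b1 rose and Il5ra, Fmnl2 and Gm38057 fell. In the other class, with its own term in the same limma model, 0 genes were called against the parental cultures, 880 had an unadjusted p under 0.05 and the smallest adjusted p was 0.686. Both sides are measured against the same parental libraries.

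Il5ra, the alpha chain of the interleukin 5 receptor, was below the parental level in all 11 derivatives, with differences of -3.16 to -1.78 in the etoposide and vincristine class (-2.32 ± 0.33, limma adjusted p = 0.0375) and of -2.34 to -0.76 in the others (-1.31 ± 0.30, not called). Its difference between the classes was not called (limma adjusted p = 0.456). Fmnl2, a formin that builds actin filaments, was 1.69 CPM in EP2883 against 52.8 CPM in its parent, 7.61 CPM in VR2883, 0.0664 CPM in VR2696 and 0 reads in EP2696 and VR2869. It also stood below the parent in 4 of 6 derivatives of the other drugs, and the difference between classes was -2.75 ± 0.67 (limma adjusted p = 0.332).

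No listed target of the 5 drugs was called or separated the classes. None of 33 tubulins and microtubule factors, the family that vincristine acts on, had an unadjusted limma p under 0.05, and the members lay between -0.90 (Tubb3) and 0.58 (Tubg2). Among 24 topoisomerases and enzymes that repair their trapped complexes, Lig4 (-0.89 ± 0.32), a ligase of end joining, and the protease Sprtn (-0.48 ± 0.21) had an unadjusted p under 0.05 and neither was called. Top2a, the main target of etoposide, was at -0.33 ± 0.42 (limma adjusted p = 0.833) and Top2b at 0.00 ± 0.16. The list of 32 targets and carriers of cytarabine, methotrexate and prednisone also held genes that are neither, such as Il7r. Of the 32, none was called and 3 had an unadjusted p under 0.05, all downward. They were Il7r (-2.77 ± 0.75), the interleukin 7 receptor, Ggh (-1.15 ± 0.32), which trims folate polyglutamates, and the nucleoside carrier Slc29a2 (-0.81 ± 0.35). Il7r was -5.38 from its parent in VR2869, -3.08 in VR2883 and -1.19 in EP2883, but 0.46 and 0.11 in EP2696 and VR2696.

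For the known resistance genes of the other drugs the single derivatives differed widely within their class, which entered the error of the class difference. The glucocorticoid receptor Nr3c1 had a difference of 1.38 ± 1.22, the folate carrier Slc19a1 0.75 ± 0.85 and the cytarabine kinase Dck 1.51 ± 0.83, none called.

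Of the 23 gene lists examined, none had medians that separated the 5 from the 6 derivatives. Over all genes tested, 5723 of 12595 had a difference above 0, and 3.39% were higher and 5.13% lower at an unadjusted limma p under 0.05, against which the members of each list are to be read. The integrated stress response, the program of ATF4 that answers to amino acid and folding stress, had a median of 0.21 over 36 genes, with 27 of 36 above 0 and 6 with an unadjusted limma p under 0.05 upward, among them the pseudokinase Trib3 (1.95 ± 0.50), Sesn2 (0.90 ± 0.31) and Sars (0.58 ± 0.21). Its median by derivative was 0.11 to 0.50 in the etoposide and vincristine class and -0.33 to 0.58 in the other, where CR2883 was the highest of all 11. None of its members was called. Proteasome subunits had a median of 0.14, with 30 of 38 above 0, and cytosolic ribosomal proteins 0.08, with 51 of 79 above 0 and 3 genes with an unadjusted p under 0.05 in each direction. Against the parental libraries, the medians of these lists in the etoposide and vincristine class were -0.04 and -0.25. In the other class they were -0.16 and -0.30, with 9 of 38 and 26 of 79 members below the parental level at an unadjusted limma p under 0.05. Over all genes tested, 485 of 12595 were below the parental level at that threshold in the other class.

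Cholesterol synthesis genes had a median of -0.29, with 4 of 25 above 0. Against the parental libraries the list's median was 0.007 in the etoposide and vincristine class and 0.33 in the other. The range of medians by derivative was wider among the etoposide and vincristine derivatives, from -0.52 in VR2869 to 1.08 in EP2696, than among the others (-0.14 to 0.67). Both etoposide derivatives (0.39 and 1.08) were above all 3 vincristine derivatives (-0.52 to -0.11) for this list, a split singled out after the values were seen. The lists of the proteasome and of interferon response and MHC class I also split fully by drug, with etoposide below vincristine. Glycolysis and hypoxia genes ranged from -2.01 in VR2696 to 1.33 in EP2883 within the first class alone, and from -1.17 to 0.70 in the second. In the list of mitosis and proliferation the median was -0.16 and 5 of 34 members were above 0, against 5723 of the 12595 genes tested, with 2 lower at an unadjusted limma p under 0.05, against 5.13%: Tpx2 (-0.48 ± 0.18) and Ccnb1 (-0.35 ± 0.15). MYC and its targets had a median of -0.12, with Mir17hg, the host of a microRNA cluster, at -1.18 ± 0.28. Mir17hg was below the parent in 5 of 5 etoposide or vincristine derivatives (-2.31 to -1.42) and in 5 of 6 others, where CR2883 was lowest (-1.52).

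Genes of T cell identity and receptor signalling had a median of -0.20. The signalling chain Cd3e was 0.87 ± 0.29 higher and the adhesion molecule Cd2 1.55 ± 0.60 lower, with Cd2 at -3.08 in VR2696, nearly as low in EP2696, and at 0.65 in EP2883. The apoptosis receptor Fas was below the parent in all 5 etoposide or vincristine derivatives (-2.98 to -0.88) and in 5 of the 6 others (-1.58 to 0.31), with a difference of -1.16 ± 0.38. Rasa3, a GTPase activator that switches off Ras and Rap1, ran from -2.53 to -1.04 in the first class and from -1.68 to 0.54 in the second (-1.67 ± 0.41). The limma adjusted p-values of Cd3e, Cd2, Fas and Rasa3 were 0.464, 0.527, 0.456 and 0.332, and none was called.

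**Figure D4:**
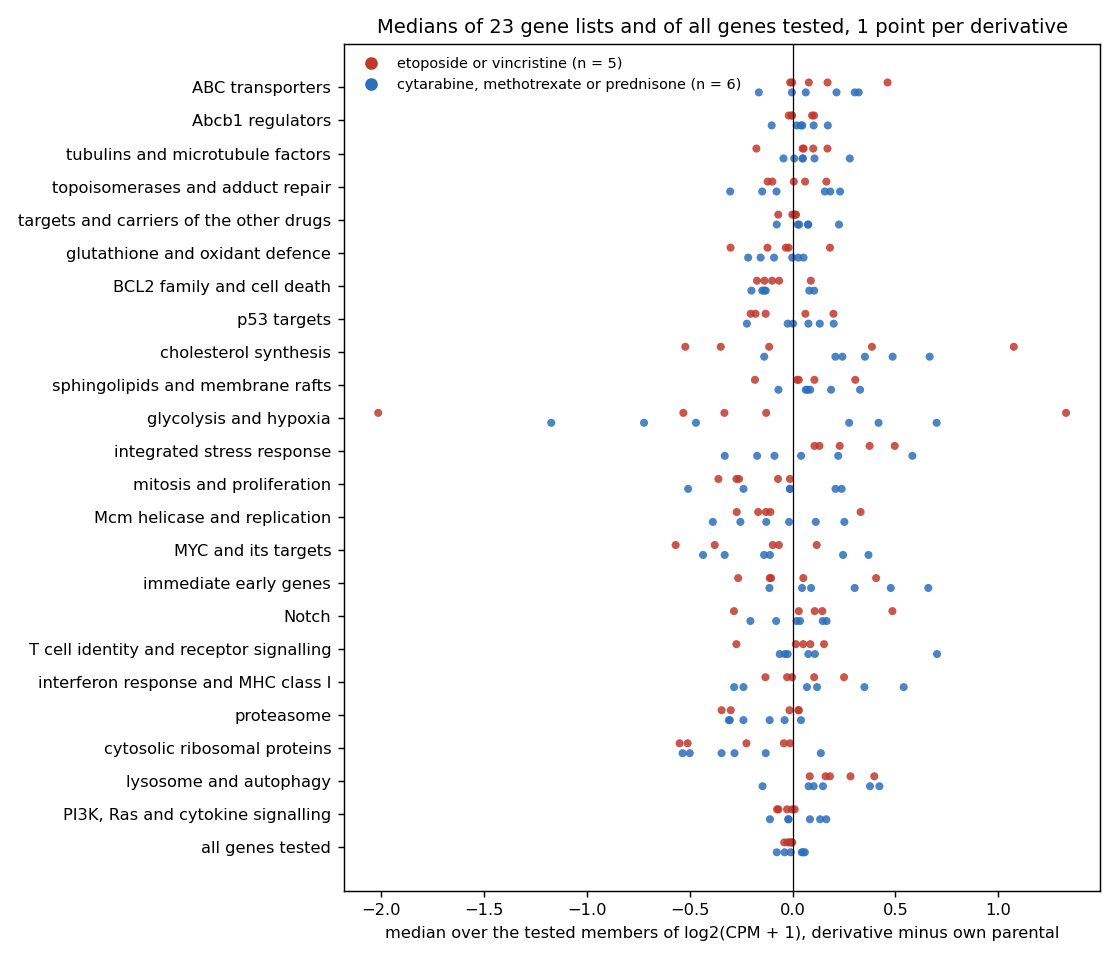
Medians over the tested members of 23 gene lists, and over all genes tested, of the difference from the own parental library in log2(CPM + 1) units; each point is 1 derivative, red for etoposide or vincristine and blue for the other drugs. Red and blue points overlap in every list, and the widest spread is that of glycolysis and hypoxia, from -2.01 to 1.33 within the red points.

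Differences from the parent were compared between derivatives of different lines, which share no parental library. Across the 12595 genes tested, the 8 pairs within the etoposide and vincristine class had a median Pearson correlation of 0.10 (-0.06 to 0.17). The 23 pairs between the classes had a median of 0.08 (-0.20 to 0.36) and the 12 pairs within the other class 0.03 (-0.20 to 0.20). Without the genes within 1 Mb of Abcb1a, the first of these was 0.08. These correlations are across genes, which are not independent replicates, and are given as a description.

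The number of genes that moved overlapped between the classes. Among genes with at least 5 CPM in the derivative or its parent, EP2883 had 1188 at least 2-fold higher and 809 at least 2-fold lower, and EP2696 had 296 and 375. VR2883 had 754 and 689, VR2869 had 678 and 436, and VR2696 had 401 and 875. In the other class the numbers ran from 151 higher (CR7298) to 1014 (CR2883), and from 287 lower (CR2869) to 575 (CR2883).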

How the data were processed

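Expression was deposited as FPKM for 13474 genes in 16 libraries. Per the submitters' processing notes, cutadapt, STAR and Partek were used with the mm10 build. The annotation and the way reads were counted are not stated. The deposited FPKM divides by the whole gene span, introns included, for all 13474 genes, and its low values carry a constant of 0.1 read.

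CPM was obtained as FPKM times span, because a pseudocount on FPKM weighs long genes differently. Depth was taken from the steps between low values; only 70.6% to 75.8% of a library's low values came within 0.05 of whole reads, too few for a test on counts. Genes with at least 1 CPM in at least 5 libraries (12595; 879 others were not tested) were fitted as log2(CPM + 1) with limma 3.58.1 in R 4.3.3 (lmFit, eBayes with trend). The model had 1 term per line and 1 per class, with 9 residual degrees of freedom. P-values are two-sided with Benjamini-Hochberg adjustment over all genes tested at 0.05, and differences of low genes are understated on this scale. Errors are SE of the model. The fit was tested on simulated data.

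The line pairs a derivative with its parental culture, as both carry the same line number in the labels; each of 11 derivatives correlated best with its own parental library (r from 0.91 to 0.98, across genes). The groups compared, the 23 gene lists and the tests were chosen with earlier results of these data known. Genes named are the 10 per direction with the smallest p without predicted models, the genes within 1 Mb of Abcb1a, the Abcb1 pair, called genes, and up to 4 members per list with the smallest p; others are said to be singled out, including the drug targets Top2a, Top2b, Nr3c1, Slc19a1 and Dck and the extremes of a list. Some genes that bear on these results are not reported here. Alternatives were another unit (FPKM), pseudocount, filter, scaling, model, leaving out lines, drugs and single libraries. Promoter windows came from RefSeq (GRCm38.p6), in which the 3 genes shown matched by symbol.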

Additional observations from a re-analysis of the deposited data

Results flagged for a closer look

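In each class of derivatives, the highest and lowest differences from the parental library were checked for a gap to the rest that is large against the whole range, for the 21 named genes. Of the 42 groups checked, 5 held such a value, and chance flags about 1 in 20 groups. Among the other-drug derivatives, Dbf4 was at -0.54 in MTX2883, Slc25a40 at 1.10 in CR2869 and Slc35d1 at 1.67 in CR2883. Among the etoposide and vincristine derivatives, Prkaa2 was at -0.41 in VR2869, from a parental level of only 1.27 CPM, and B3gnt2 at -1.13 in EP2696.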

How the results depend on the processing

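With log2(FPKM + 1), limma called 1 gene between the classes, 3 for etoposide and vincristine against parental and 1 between lines 2883 and 2869 (4, 6 and 6 as reported; the last asks whether the class difference differs between the lines, and none of its genes is named). With a pseudocount of 0.1 the second was 2 and the third 36. Quantile normalization gave 3 for the second. Without the line as replicate block the counts between the classes and against parental were 2 and 3. With 1 term per drug they were 10 and 0, and 3 genes were called for the other drugs against parental, where 0 were called otherwise. The derivatives alone gave 13 between the classes, the 11 differences as 2 groups 0, and line 2883 alone 15. Without line 2883 the counts were 0 and 0. Without prednisone they were 1 and 1, and 0 between the lines, and without methotrexate the last was 3. Without the genes near Abcb1a, an alternative chosen after seeing the data, they were 0 and 0. That alternative takes out called genes by construction, which by itself can raise the adjusted p of those left. Leaving out each library gave 1 to 28 between the classes (28 without Par2696, 10 without EP2696, 1 without VR2883 or VR2869), 1 to 16 against parental, 0 for the other drugs against parental and 0 to 10 between the lines. The exact permutation p of Abcb1a was 0.05 within lines and 0.00476 to 0.00794 without single derivatives. That of Abcb1b was 0.0303 on log2(FPKM + 1) and 0.00952 to 0.114 without single derivatives. Of the named genes' differences under these alternatives, 593 kept direction and side of the threshold, 26 gained a call, 35 lost one and 0 changed sign. The cause was not tested. Most of the named genes were not called as reported, so keeping the side mostly meant staying uncalled. Of those called, Abcb1a held in 29 of 31 alternatives, Rundc3b in 17 of 30 and Atp1b1 in 11 of 31. Line 2883 gives 6 of 16 libraries, only lines 2883 and 2869 hold both classes, and a CPM of 1 rests on few reads.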

Other observations

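Some further genes, singled out after their values were seen, had differences from the parent that did not overlap between the classes, as in 0.143% of genes tested in each direction, and none was called. Traf1, an adaptor of tumour necrosis factor receptors, was higher in the etoposide and vincristine class (1.86 ± 0.43, limma adjusted p = 0.332), above the parent in 5 of 5 derivatives and in 5 of 6 others. The receptor kinase Ltk (1.74 ± 0.36, limma adjusted p = 0.249) was above the parent in 3 of 5 and below it in all 6 others, and Lpcat1, which remodels phosphatidylcholine, was at 0.73 ± 0.19. Mapk14, the stress kinase p38 alpha (-0.74 ± 0.21), and Msra, which repairs oxidised methionine (-0.66 ± 0.19), were lower, each above the parent in 1 of 5 and in 6 of 6 others.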
